A study of Mus musculus with 5 samples.

Results

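Interferon-stimulated effector genes are the genes that a cell switches on when interferon binds its receptor, and they encode the proteins that sense, cut, trap or tag viral nucleic acid and protein. The set followed here was named by symbol and held 35 genes. Of these, 33 had a row of the array table assigned to that gene alone, out of 22180 genes with such a row. The row of Gbp2 is shared with a paralogue in the platform annotation, and Ifi44 had no row assigned to it alone. Both genes had a promoter window and enter only the promoter counts below. Only Ifi35 had more than 1 row, and its brighter row was used. The cells were bone marrow-derived macrophages of wild-type mice aged 10 weeks, whose strain the labels do not give, grown on plastic with M-CSF at 20 ng/ml plus RANKL at 30 ng/ml. M-CSF keeps macrophages and their precursors alive, and RANKL is the cytokine that turns them into bone-resorbing osteoclasts. RNA was taken at day 0 (macrophages), at days 1, 2 and 3 (differentiating cells) and at day 5 (cells labelled mature osteoclasts), with 1 Affymetrix array per day and 5 in all. A culture kept without RANKL is not among the arrays analysed, so time in culture and the effect of RANKL cannot be told apart, and a fault of 1 array cannot be told apart from its day. Days were not replicated, and all comparisons are therefore descriptions of single arrays without a test. Values are the deposited log2 values, differences are on the log2 scale with the earlier day subtracted, and a difference of at least 1 in size is called 2-fold.

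Type I interferons act through the receptor IFNAR, the kinases JAK1 and TYK2 and a complex called ISGF3, which holds STAT2 and IRF9. That complex binds a short promoter sequence, the interferon-stimulated response element, or ISRE. Macrophages hold a low tonic level of this signalling without infection. In osteoclast precursors RANKL is known to induce interferon-beta, which holds back osteoclast formation, and several interferon-stimulated genes are used as readouts of that loop.

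The ISRE is printed first because ISGF3 binds it and because it was not used to choose these genes. RefSeq promoter windows of assembly GRCm38.p6, from 250 bases before to 50 after a transcript start, matched 25 of the 35 genes. The ISRE core was searched on both strands as GAAA and GAAA with any 2 bases between them, or, read on the other strand, TTTC and TTTC with any 2 bases between them. It was present in at least 1 window of 15 of the 25 (60%), against 3.99% of the 27025 genes with a window. The match was not particular to the members. Among related genes outside the set, it was present for 4 of 4 other GBP and IRG GTPases and 9 of 17 interferon genes. It was also present for 8 of 14 other OAS, IFIT, HIN-200 and IFITM genes and 13 of 41 other type I interferon-induced genes. Each remaining comparison list was at 27.3% or less. The second interferon element, the gamma-activated sequence TTCNNNGAA, was present for 6 of the 25 (24%), against 9.55% of all genes. The stretches below run 5′ to 3′ on the gene's strand, stop at the transcript start at the latest, and have each ISRE core in capitals. They were chosen to show members that dipped on the day 2 array (Ifit1, Isg15, Oas3, Stat2, Rsad2) beside those that did not (Gbp7, Ifit3).
Ifit1 (chr19:34640745-34640853, + strand): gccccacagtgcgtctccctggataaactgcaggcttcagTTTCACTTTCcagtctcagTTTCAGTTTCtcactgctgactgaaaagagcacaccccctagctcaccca
Isg15 (chr4:156200835-156200936, - strand): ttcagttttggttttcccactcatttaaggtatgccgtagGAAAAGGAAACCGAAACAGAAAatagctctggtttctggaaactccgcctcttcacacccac
Oas3 (chr5:120777685-120777774, - strand): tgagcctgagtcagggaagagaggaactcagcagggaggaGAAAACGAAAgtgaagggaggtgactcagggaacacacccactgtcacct
Stat2 (chr10:128270248-128270325, + strand): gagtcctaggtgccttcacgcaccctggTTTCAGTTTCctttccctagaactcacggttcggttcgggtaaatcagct
Rsad2 (chr12:26456523-26456612, - strand): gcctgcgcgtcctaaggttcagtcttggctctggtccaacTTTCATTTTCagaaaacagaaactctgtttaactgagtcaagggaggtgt
Gbp7 (chr3:142530243-142530332, + strand): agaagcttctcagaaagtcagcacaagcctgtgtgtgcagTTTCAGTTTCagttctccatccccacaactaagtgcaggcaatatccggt
Ifit3 (chr19:34583333-34583456, + strand): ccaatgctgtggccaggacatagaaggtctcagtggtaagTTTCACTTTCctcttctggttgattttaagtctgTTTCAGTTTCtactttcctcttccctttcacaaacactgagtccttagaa
Ifit1 and Ifit3 each carried a pair of separate cores upstream of the start, and in Isg15 3 cores overlapped in one run. The 14 members with an ISRE and a row had a median difference of -0.95 at day 2 from day 0 and ranged from -2.01 to 0.97. The 9 with a window but no match to these letters had a median of -0.58 and ranged from -2.94 to -0.03. The 10 members without a window, for which a match is unknown, had a median of -1.09 and ranged from -2.13 to 0.00. The ranges of the groups overlapped, and the difference between the groups was not tested. Oasl2, which differed most, had no match in its window, and Gbp7, which was higher, had one. A match describes the letters in the window and does not show that a factor binds there.

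**Figure D1:**
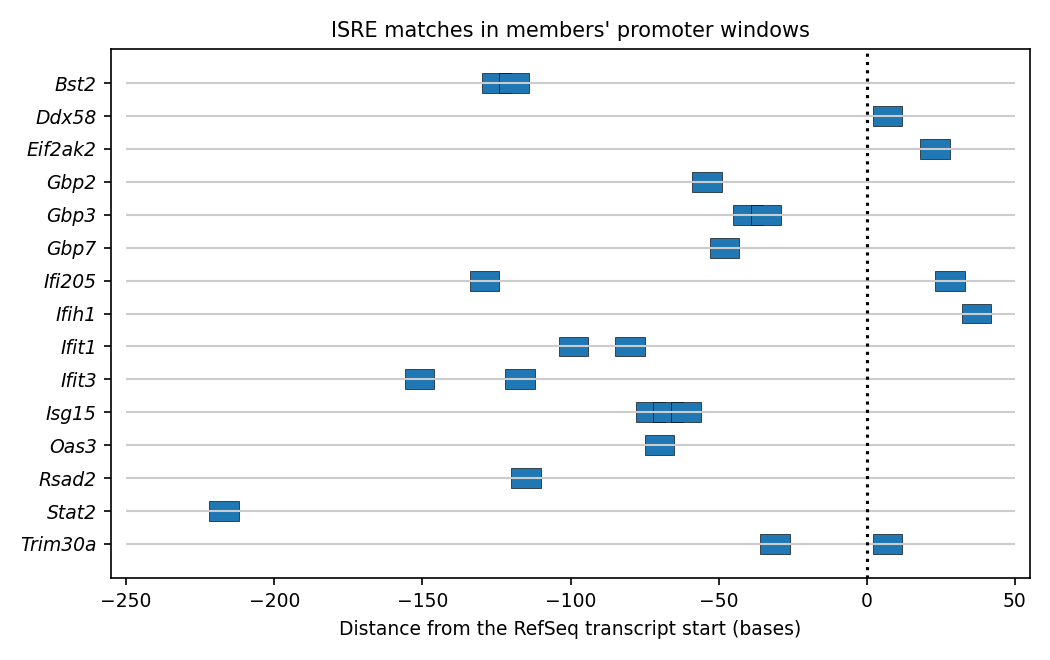
Positions of the ISRE core (blue boxes, 10 bases each) in the promoter windows of the 15 members that hold it, as distance in bases from the RefSeq transcript start (dotted line); grey lines span the window of 300 bases. Isg15, Bst2 and Gbp3 show overlapping cores, Ddx58, Eif2ak2 and Ifih1 hold theirs just downstream of the start, and the matches of Trim30a come from windows of different transcript starts.

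The interferon-stimulated genes were mostly at their lowest on the day 2 array and near their starting level at day 5. Day 2 was the lowest of the 5 arrays for 24 of the 33 genes, or 72.7%, while 16.5% of all 22180 genes had their lowest value there (15.1% of the 12049 genes above a level filter, whose mean over the arrays reached the median of all rows, 4.89). The genes' median value was 7.49 at day 0, 6.82 at day 1, 6.30 at day 2, 7.21 at day 3 and 7.58 at day 5. Precision is limited by there being 1 array a day. In RNA from a whole culture, fewer cells of a type and less RNA per cell cannot be told apart. Of the others, Ifit2, Eif2ak2, Mx1, Mx2 and Rtp4 were lowest at day 1, Ifit3 and Ifi35 at day 3, Gbp3 and Gbp7 at day 0, where 19.3% of all genes were lowest, and none at day 5.

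Against day 0, the day 2 value was at least 2-fold lower for 16 of the 33 and higher for 0, where 3.01% of all genes were lower and 2.99% higher. Among the genes above the level filter 5.25% were 2-fold lower. Of the members 32 lay above that filter and Mx1 below it. The members' median difference was -0.88, with 29 below 0, 3 above and Mx2 at exactly the same value, while the median over all genes was 0. Nearest to the 2-fold line were Ddx58, just past it at -1.01, and, on the higher side, Gbp7, just short of it at 0.97. On the lower side Ifih1 came next, short of it at -0.88.

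From day 2 to day 3 the genes went the other way: 12 of 33 were at least 2-fold higher and 0 lower, against 1.33% of all genes higher and 2.28% lower (2.08% and 3.91% above the level filter). The median difference was 0.76, and 30 of 33 were above 0. Both comparisons use the day 2 array, so a low value on that array alone lowers the first and raises the second. Zbp1, Ifi204, Ifit1, Oas2, Oas3, Oasl2, Cmpk2, Stat2, Isg15 and Usp18 were past 2-fold in both, 10 of 33 members, while 0.433% of all genes (0.739% above the level filter) showed the same pair of differences.

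**Figure D2:**
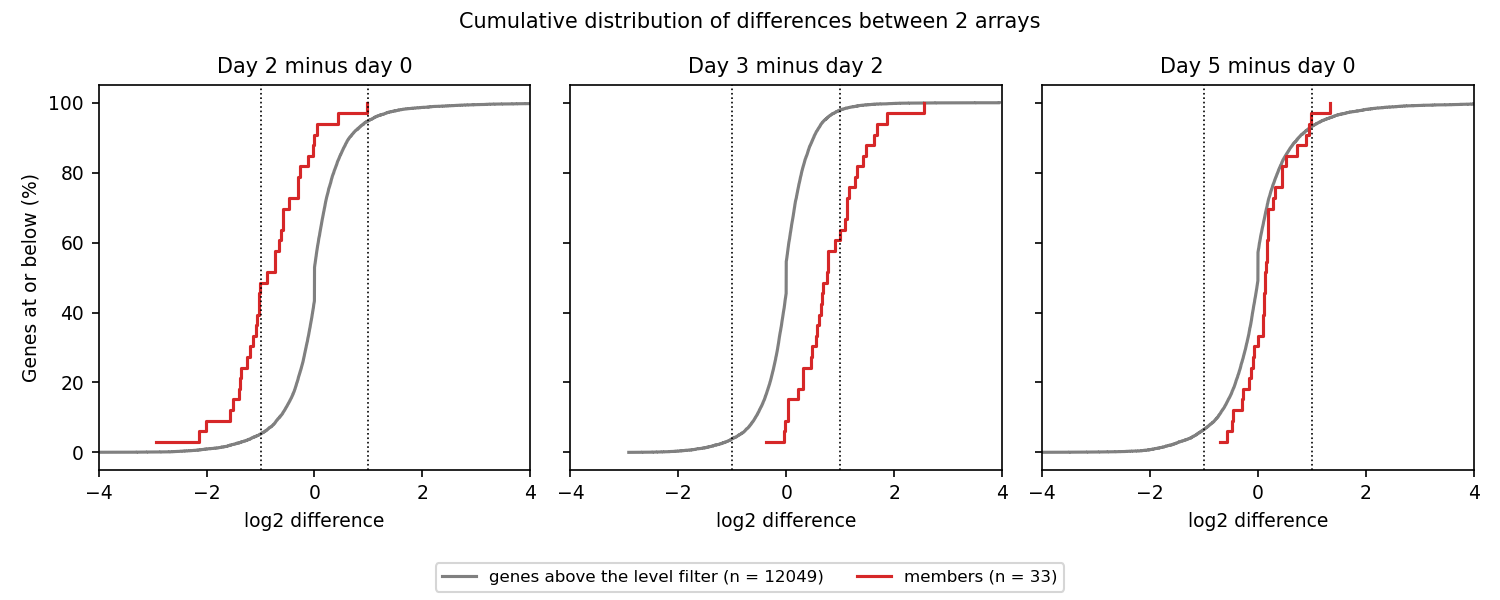
Cumulative share of genes (percent, vertical axis) against the log2 difference between 2 arrays (horizontal axis) for the 33 members (red) and the 12049 genes above the level filter (grey); dotted lines mark 2-fold. The members lie left of the other genes at day 2 minus day 0 (median -0.88), right of them at day 3 minus day 2 (median 0.76), and close to them at day 5 minus day 0 (median 0.13).

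The way down was spread over both steps. At day 1 against day 0, 28 of 33 genes were already lower in value and 4 were 2-fold lower, namely Ifi204, Oasl2, Stat2 and Parp14, where 2.39% of all genes were lower and 1.71% higher. Ifit1 stood just short of the line. The median was -0.45. From day 1 to day 2, Oas2, Oas3, Oasl2, Isg15 and Usp18 were 2-fold lower, 5 of 33, and 0 were higher, where 0.455% of all genes were lower and 1.48% higher, and the median was -0.35. Oasl2 was 2-fold lower in each step. Ifi204, Stat2 and Parp14 had most of their difference at day 1, and Oas2, Oas3, Isg15 and Usp18 had most of theirs between days 1 and 2.

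Between days 3 and 5 no member passed 2-fold in either direction, where 0.257% of all genes were higher and 0.234% lower. Of the 33, 26 were higher in value at day 5 than at day 3, with a median of 0.18, and Eif2ak2 was equal on both. Against day 0, only Gbp7 was 2-fold higher at day 5 and 0 genes were 2-fold lower, with backgrounds of 3.99% and 3.75%. The median of 0.13 had no settled sign, since it was -0.30 when arrays were centred on the median of the reference genes. At day 5, 25 of the 33 lay within 0.5 of their day 0 value, as did 79.2% of all genes and 67.9% of those above the level filter, so a value near day 0 was common to most genes. Against day 1 in place of day 0, 8 members were 2-fold higher at day 5 and 0 lower, where 3.66% of all genes were higher and 3.85% lower.

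**Figure D3:**
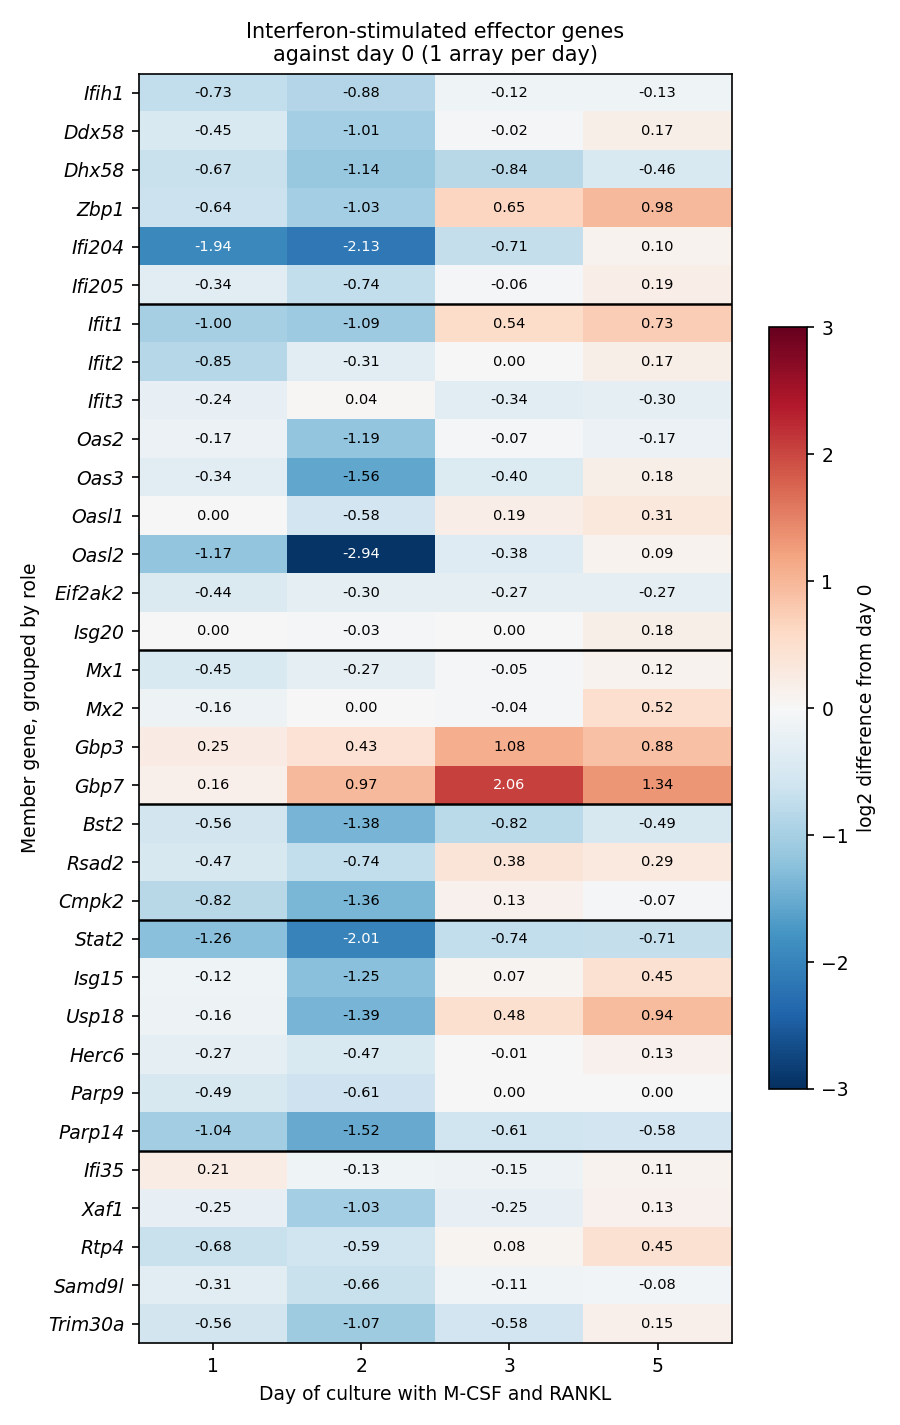
Log2 difference from day 0 (colour and printed number) for each of the 33 member genes at days 1, 2, 3 and 5, 1 array per day, with black lines between the roles in the order of the text. The day 2 column is the bluest, from -2.94 for Oasl2, and the guanylate-binding genes Gbp3 and Gbp7 stand out in red.

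Among the sensors of foreign nucleic acid, all 6 had their lowest value at day 2 and 4 were 2-fold lower there than at day 0. Over all genes, 16.5% were lowest at day 2 and 3.01% were 2-fold lower there than at day 0. Ifi204, a HIN-200 protein that binds DNA, held 7.49 at day 0, 5.55 at day 1, 5.36 at day 2, 6.78 at day 3 and 7.59 at day 5. It was 4.39-fold lower at day 2 than at day 0 and low on both the day 1 and the day 2 array. Its relative and near neighbour on the chromosome Ifi205 had a narrower course, with 5.40, 5.06, 4.66, 5.34 and 5.59 over days 0, 1, 2, 3 and 5. Sequence-related genes of this family can share probe signal, and this was not tested.

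Zbp1, the Z-nucleic acid sensor that starts necroptosis, held 6.15, 5.51, 5.13, 6.81 and 7.14 over the same days. It was 3.21-fold higher at day 3 than at day 2 and ended 0.98 above day 0, just short of 2-fold. The RNA helicases of the RIG-I family lay between -1.14 and -0.88 at day 2 against day 0, beside -1.03 for Zbp1. Ddx58, which encodes RIG-I, held 8.61, 8.16, 7.59, 8.59 and 8.78. Ifih1, which encodes MDA5, the sensor of long double-stranded RNA, held 8.55, 7.82, 7.67, 8.43 and 8.42. Both were close to their day 0 value again at day 3. Dhx58, which encodes LGP2, a regulator of both helicases, held 7.53, 6.86, 6.38, 6.69 and 7.07 and was still 0.46 below day 0 at day 5.

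The 2-5A synthetase family had the deepest member. Oasl2, a ubiquitin-like relative of the enzymes that activate RNase L, held 8.77 at day 0, 7.60 at day 1, 5.83 at day 2, 8.39 at day 3 and 8.87 at day 5. It was 7.67-fold lower at day 2 than at day 0 and 5.90-fold higher at day 3 than at day 2, the largest of the 33 in both. Oasl1, its direct neighbour on the chromosome, had the same lowest day with a smaller range, at 5.89 on days 0 and 1, 5.30 at day 2, 6.08 at day 3 and 6.20 at day 5.

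Oas3, a synthetase that makes the 2-5A messenger, held 8.08, 7.74, 6.52, 7.67 and 8.26, and was 2.95-fold lower at day 2 than at day 0. Its neighbour Oas2 held 8.49, 8.32, 7.30, 8.42 and 8.32. In both, the day 2 array stood clearly below the other arrays, which lay close together.

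Of the IFIT proteins, IFIT1 binds viral RNA by its 5′ end. The IFIT genes differed from each other in their values although they lie in one cluster. Ifit1 held 6.49 at day 0, 5.49 at day 1, 5.40 at day 2, 7.03 at day 3 and 7.22 at day 5. It was low on both early arrays and 3.09-fold higher at day 3 than at day 2, and its values at days 3 and 5 were above the one at day 0. Ifit2 held 5.89, 5.05, 5.58, 5.89 and 6.07, so its low array was day 1. Ifit3 held 6.25, 6.01, 6.30, 5.92 and 5.95, a range of 0.38 with its highest value on the array where most members were lowest.

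The kinase PKR and the exonuclease ISG20 had small ranges. Eif2ak2, which encodes PKR and shuts down translation on double-stranded RNA, held 8.26, 7.82, 7.96, 7.99 and 7.99. Isg20 held 5.76 on days 0, 1 and 3, 5.73 at day 2 and 5.94 at day 5. Equal values on several arrays may come from the summary method used for the deposited table, which was not tested. Of all genes, 20.5% held the same value at days 2 and 0.

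None of the 4 GTPases with a row was lowest at day 2, where 16.5% of all genes were lowest. For 4 genes a count of 0 is near that share. Ifit2, Ifit3, Eif2ak2, Rtp4 and Ifi35 of other roles were not lowest there either. Of 11 other GBP and IRG GTPases outside the set, 5 were lowest at day 2. Gbp7, a guanylate-binding protein that acts on vacuoles holding microbes, held 6.45 at day 0, 6.61 at day 1, 7.42 at day 2, 8.51 at day 3 and 7.79 at day 5. It was 2.13-fold higher at day 3 than at day 2, peaked there, and stood 1.34 above day 0 at day 5. Its direct neighbour Gbp3 held 5.45, 5.70, 5.89, 6.54 and 6.34, the same order of days with a smaller size. Both were lowest at day 0 and highest at day 3.

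The dynamin-like Mx1 and Mx2 block virus particles after entry, and Mx1 is defective in many inbred mouse strains. Mx1 held 3.78, 3.32, 3.51, 3.73 and 3.90, all below the level filter, where the background handling of the array compresses differences. Mx2 held 5.26, 5.10, 5.26, 5.22 and 5.78, with day 5 as the high array.

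Of the effectors at membranes and in nucleotide metabolism, all 3 were lowest at day 2, where 16.5% of all genes were lowest. Bst2, the tetherin that holds budding virus at the cell surface, held 12.19, 11.63, 10.80, 11.37 and 11.70. It was 2.61-fold lower at day 2 than at day 0 and at day 5 was still 0.49 below. Rsad2, which encodes viperin, an enzyme that makes a chain-terminating nucleotide, held 6.15, 5.68, 5.41, 6.53 and 6.44. Cmpk2, the nucleotide kinase encoded next to it, held 7.65, 6.82, 6.28, 7.77 and 7.58. The neighbours shared the order of their early days, and Cmpk2 was 2.81-fold higher at day 3 than at day 2 and Rsad2 2.18-fold.

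In the ISG15 system and the signalling genes all 6 were lowest at day 2, where 16.5% of all genes were lowest. Stat2, the interferon-specific subunit of ISGF3, held 9.19 at day 0, 7.94 at day 1, 7.18 at day 2, 8.45 at day 3 and 8.48 at day 5. It was 4.03-fold lower at day 2 than at day 0, and in contrast to most members it was still 0.71 lower at day 5. Isg15, the ubiquitin-like modifier, held 7.65, 7.52, 6.40, 7.72 and 8.10, with day 2 alone standing low. Usp18, which removes ISG15 from proteins and blocks the receptor IFNAR2, held 6.53, 6.37, 5.14, 7.01 and 7.48. Usp18 was 3.65-fold higher at day 3 than at day 2 and ended 0.94 above day 0.

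Herc6, the ligase that attaches ISG15 in mice, had a shallow course of 8.16, 7.89, 7.69, 8.15 and 8.29. Parp14, an ADP-ribosyltransferase, held 9.68, 8.64, 8.17, 9.07 and 9.10, and was 2.86-fold lower at day 2 than at day 0 and 0.58 lower at day 5. Parp9, encoded close to it, held 6.72 at day 1, 6.60 at day 2 and 7.21 on each of days 0, 3 and 5.

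The remaining 5 genes had dips of mixed size. Xaf1, a partner of the apoptosis inhibitor XIAP, held 7.12, 6.87, 6.09, 6.87 and 7.25. Trim30a, which restrains NF-kB signalling, held 7.16, 6.60, 6.10, 6.58 and 7.32, and only at day 5 was it back at the day 0 level. Rtp4, a chaperone of membrane receptors, held 8.28, 7.60, 7.69, 8.36 and 8.73, and was low on both early arrays. Samd9l, a restriction factor for poxviruses, held 7.88, 7.57, 7.22, 7.77 and 7.80. Ifi35, a leucine zipper protein, held 9.20, 9.41, 9.07, 9.04 and 9.31, with a range of 0.37, and its dimmer row held 4.75 on each array except 4.36 at day 2.

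**Figure D4:**
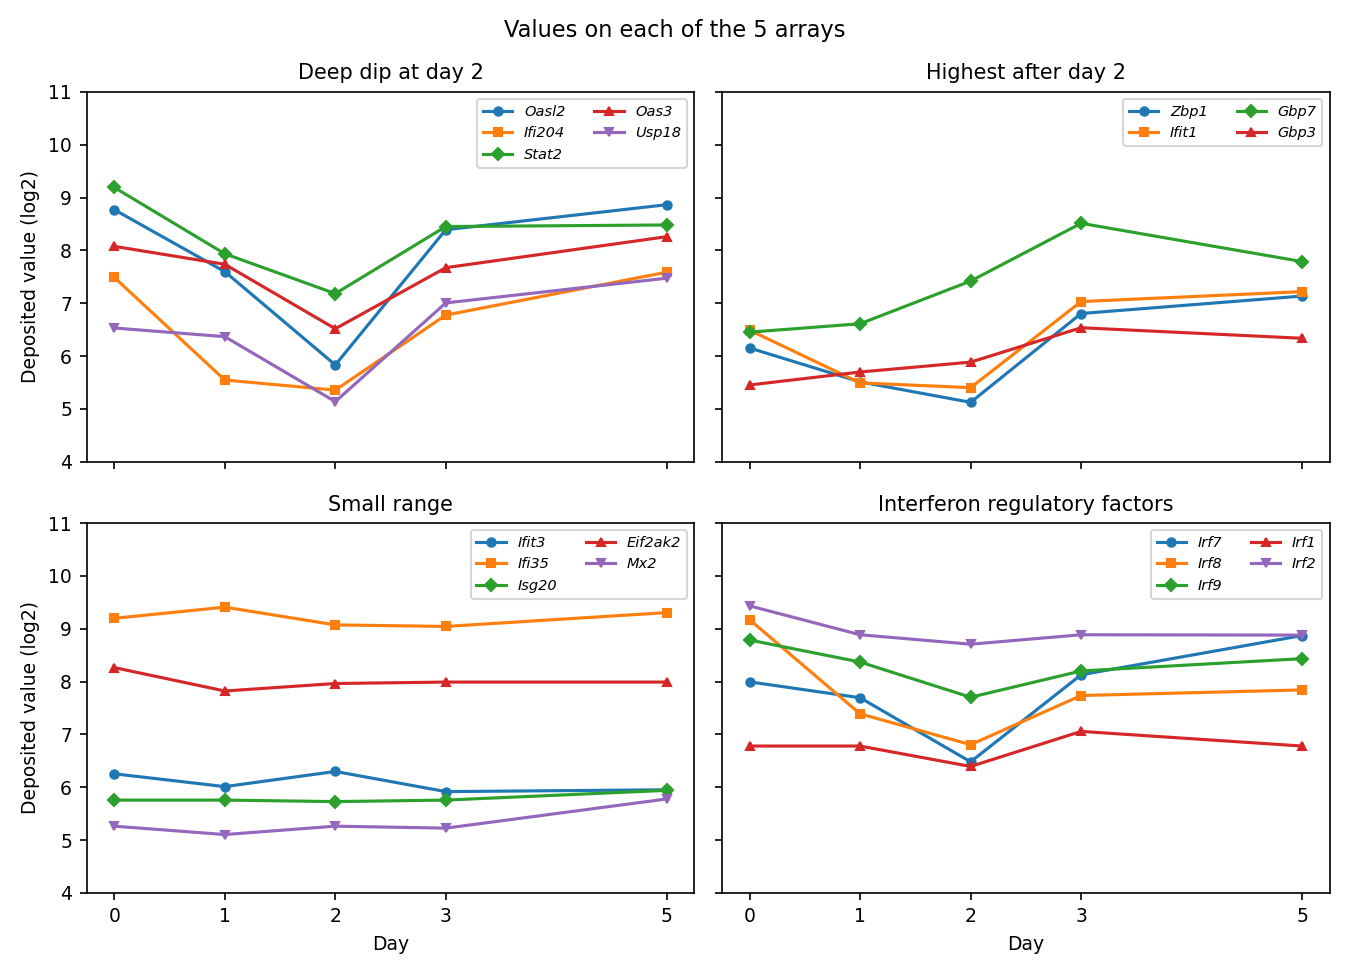
Deposited log2 values (vertical axis) on each array by day (horizontal axis), 1 array per point, for members with a deep dip at day 2, members at their highest after day 2, members with a small range, and interferon regulatory factors. Oasl2 drops to 5.83 at day 2 and Irf7 to 6.48, while Ifit3 stays between 5.92 and 6.30. The groups overlap. Oasl2, Ifi204, Oas3 and Usp18 of the deep-dip group were highest at day 5. Zbp1 and Ifit1 of the second group were 2-fold lower at day 2 than at day 0. Levels of different genes are not comparable on this axis.

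Genes upstream of the set were compared by fixed lists, and Irf7, a transcription factor that ISGF3 itself induces, showed both of the differences described for the members. Irf7 held 7.99, 7.69, 6.48, 8.13 and 8.87 over days 0, 1, 2, 3 and 5, and was 2-fold lower at day 2 than at day 0 (-1.51) and 2-fold higher at day 3 than at day 2 (1.65). Irf8, a macrophage regulator that opposes osteoclast formation, held 9.17, 7.39, 6.80, 7.73 and 7.84, so it stayed low at day 5. In the list of interferon regulatory factors these 2 of 6 genes were 2-fold lower at day 2 than at day 0. Day 2 was the lowest array for 4 of the 6, where 16.5% of all genes were lowest. Irf1 held 6.78 on days 0, 1 and 5, with its lowest value of 6.39 at day 2 and its highest of 7.06 at day 3. Of 9 receptor and JAK-STAT genes only Irf9, the DNA-binding subunit of ISGF3, passed 2-fold at day 2 against day 0, with 8.79, 8.37, 7.70, 8.20 and 8.43, and 8 did not. The receptor chains were narrower, with Ifnar1 between 10.29 and 10.86 and Ifnar2 between 9.97 and 10.69. The median of the 9 at day 2 minus day 0 was -0.48, and 5 of them had their lowest value at day 2.

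The interferon genes themselves showed neither difference at the 2-fold size. None of the 18 with a row passed 2-fold at day 2 against day 0 or at day 3 against day 2. Over all genes, 3.01% were 2-fold lower in the first comparison and 1.33% were 2-fold higher in the second. The medians of the 18 were -0.04 and 0.14, and 11 of the 18 lay below the level filter. For the 7 above it the medians were -0.40 and 0.40, so smaller differences in the members' direction were present. Ifnb1, the interferon-beta gene that macrophages make first, held between 3.31 and 3.38 on the 5 arrays, which is near the lower end of the scale. Ifna4 differed most, with 7.60 at day 0 and 6.08 at day 5. In the induction pathway 4 of 11 genes were 2-fold lower at day 2 than at day 0, namely the endosomal receptors Tlr3 (-1.22) and Tlr7 (-1.70), the kinase Ikbke (-1.74) and the DNA-sensing adaptor Sting1 (-1.24). None of the 11 was 2-fold higher at day 3 than at day 2, and Cgas, the DNA sensor that feeds Sting1, was 2-fold lower (-1.67). Among 15 negative regulators 1 was 2-fold lower at day 2 than at day 0, Nlrc5 (-1.06), and 0 were 2-fold higher at day 3 than at day 2, with medians of -0.07 and 0.00. At day 1 against day 0 the phosphatase Ptpn1 was 2-fold lower (-1.09), and Socs1, the JAK inhibitor, was higher in value (0.98).

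Other interferon-induced genes that are not members were counted in the same way. Over all genes, 16.5% had their lowest value at day 2, 3.01% were 2-fold lower there than at day 0 and 2.99% higher. From day 2 to day 3, 1.33% of all genes were 2-fold higher. Of 44 type I interferon-induced genes, 26 had their lowest value at day 2, 11 were 2-fold lower there than at day 0 and 1 higher, and 7 were 2-fold higher at day 3 than at day 2. Their medians were -0.40 and 0.25, against -0.88 and 0.76 for the members, and the difference between the lists was not tested. Trim30d, a paralogue of Trim30a, held 7.85, 6.02, 5.84, 7.14 and 7.80, and Sp100, a nuclear body protein, held 9.49, 8.14, 7.39, 8.58 and 8.88. The paralogues nearest to the members, 16 other OAS, IFIT, HIN-200 and IFITM genes, had medians of -0.02 and 0.16 in the same comparisons. Of these, 6 had their lowest value at day 2, 3 were 2-fold lower there than at day 0 and 1 higher, and 3 were 2-fold higher at day 3 than at day 2. Oas1g, a further synthetase, was at -1.39 and 1.33, while Ifi202b was at 2.21 and -0.63. Day 2 was the lowest array for 5 of 11 other GBP and IRG GTPases. Of the 11, 2 were 2-fold lower there than at day 0, Irgm2 (-1.71) and Igtp (-1.14). Both act on microbe-holding vacuoles. Only Irgm2 (1.37) was 2-fold higher at day 3 than at day 2.

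**Figure D5:**
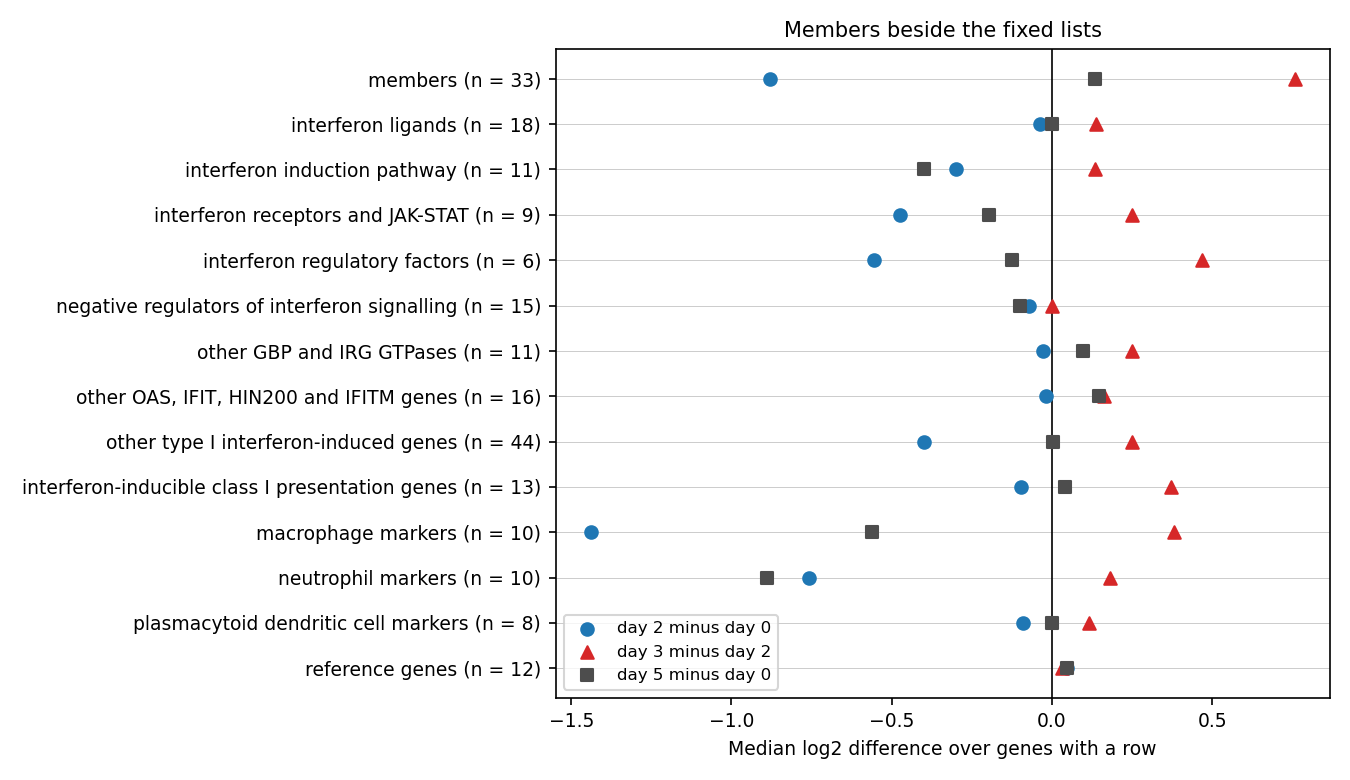
Median log2 difference (horizontal axis) over the genes with a row of the members and of 13 fixed lists, for day 2 minus day 0 (circles), day 3 minus day 2 (triangles) and day 5 minus day 0 (squares), each from 1 array a day. The members sit at -0.88, 0.76 and 0.13; macrophage markers are lower at day 2 (-1.44) and differ by 0.38 from day 2 to day 3.

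Markers of the cultured cells and of other cell types were followed beside these values. All 10 osteoclast markers were at least 2-fold higher at day 2 than at day 0, with a median of 4.74, and stayed high while the members came back. Of 10 macrophage markers 6 had their lowest value at day 2 and 6 were 2-fold lower than at day 0, with a summed linear level of 38195 at day 0, 21807 at day 1, 20700 at day 2, 27606 at day 3 and 29136 at day 5. This sum was lowest on the day 2 array, as was the members' median, but most of its fall came by day 1. It was still below its day 0 level at day 5. The medians of the macrophage markers were -1.02 at day 1 minus day 0, -0.30 at day 2 minus day 1 and -0.56 at day 5 minus day 0. Their part in the result was not tested. The sum of the neutrophil markers was 1821 at day 0, 1897 at day 1, 907 at day 2, 1227 at day 3 and 1030 at day 5. Of these 10 markers only 3 had their lowest value at day 2, and 4 were 2-fold lower there than at day 0. The neutrophil markers had a median of -0.89 at day 5 minus day 0. Their part was not tested either. Plasmacytoid dendritic cells are strong makers of interferon and express Bst2, but 5 of their 8 markers lay below the level filter. Their sum was 1184 at day 0 and between 615 and 692 later, carried by Tcf4, and the defining marker Siglech held between 4.98 and 5.73. B cell, T cell and NK cell markers all lay below the level filter. The 5 stromal and osteoblast markers moved the opposite way as a sum, with 151 at day 0, 461 at day 1, 448 at day 2, 373 at day 3 and 260 at day 5. Dcn, a matrix proteoglycan, carried this sum, at 3.26 above day 0 at day 1 and 3.25 at day 2, while Sp7, the osteoblast factor, held 3.96 throughout. The sum of 5 conventional dendritic cell markers was 408 at day 0, 751 at day 1, 451 at day 2, 553 at day 3 and 720.4 at day 5, led by the integrin Itgax, with 7.57 at day 0 and 9.07 at day 1. The part of either in the members' course was not tested.

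The arrays themselves were closely matched by the normalisation, with medians between 4.88 and 4.92 and upper quartiles between 7.05 and 7.17, so a change of all genes together would not be seen. As a yardstick, the day 2 minus day 0 difference of 426 genes with 2 rows above the level filter disagreed between their rows with an SD of 0.52, or 0.37 for 1 row. That figure covers measurement within an array and not the spread between cultures. The corresponding SD for day 3 minus day 2 was 0.42, or 0.29 for 1 row.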

How the data were processed

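The labels' time entry gave the day of each of the 5 arrays. Per the labels, Trizol RNA (5 ng) was labelled with the Affymetrix WT Pico kit. The authors deposited log2 values, and the tools named per the submitters' processing notes are RMA, oligo and R 3.4.0. RMA corrects background, normalises arrays to one distribution and summarises probes by median polish. For the summary level and the genome build: not given in the sources used here.

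Of 41345 rows, 23521 named 1 gene, 1814 several and 16010 were not listed. For 1082 genes with several rows the one with the highest mean was used, giving 22180 genes, of which 21994 matched RefSeq of GRCm38.p6 by Entrez identifier with the same symbol. List symbols without a row were looked up through RefSeq synonyms. Differences between arrays were counted at 1 or more in size over all genes with a row. The level filter, 4.89, is the median of row means. Members, 18 comparison lists and their 241 genes, of which 214 had a row, were chosen with earlier results of these data known. All members were named, and in other lists the 3 genes above the level filter with the largest difference at day 1 and at day 5, plus a fixed set that includes Irf9, Irf7, Irf8, Irf1, Ifnar1, Ifnar2, Ifnb1, Socs1 and Siglech. Other names were chosen after their values were seen, as was the comparison of day 2 with day 0 and the count of genes lowest at day 2. Not every gene named by the rule is printed. Counting was tested on simulated data. Alternatives covered scaling, rows, level filter, size and days. Python 3.11.15, numpy 2.4.6, pandas 2.3.3 and matplotlib 3.10.9 were used.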

Additional observations from a re-analysis of the deposited data

How the results depend on the processing

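Of 177 alternative values for list medians and counts, 152 stayed close to the reported one (a median within 0.2, a count within 1.5 times) and 25 moved. With each array centred on the median of the reference genes, the median of all genes shifted by -0.35 for day 2 minus day 0 and by -0.43 for day 5 minus day 0, and changes are relative to that shift. The members' medians became -1.23 (day 2 minus day 0), -0.60 (day 2 minus day 1), -0.30 (day 5 minus day 0) and 0.24 (day 5 minus day 1). Counts became 8 lower from day 1 to day 2, 0 higher and 2 lower at day 5 against day 0, and 3 higher at day 5 against day 1. That median falls on different genes on different arrays. With each reference gene taken relative to its own mean, an alternative chosen after seeing the data, every median and count stayed close, with 24 members lowest at day 2 and 16 at least 2-fold lower than at day 0. Centring on genes above the level filter gave 2 members higher at day 5 against day 0.

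At 1.5-fold in place of 2-fold, 11 members were lower at day 1 against day 0. From day 1 to day 2, 8 were lower and 1 higher. From day 2 to day 3, 21 were higher. From day 3 to day 5, 3 were higher and 1 lower. At day 5, 5 were higher and 1 lower than at day 0, and 15 higher than at day 1. At day 2, 1 was higher than at day 0. Restricting to the 16 members above the 75th percentile of row means left 12 lowest at day 2, 9 lower at day 2 than at day 0 with a median of -1.10, 7 higher at day 3 than at day 2 and 3 higher at day 5 than at day 1, since fewer genes entered. With day 2 in place of day 1 the median at day 5 was 0.93. Of 132 values for single members 33 moved, all at day 5 against day 0 under the reference-gene centring. There 8 members were above 0 in place of 23, and 0 called values reversed. The method fixed this split in advance. The centring shifts every member equally, by -0.43 in that comparison and by -0.10 at day 1 against day 0, beside the limit of 0.2. The other setting, the mean of a gene's rows, could change only Ifi35. The counts for single members therefore do not measure how firm their values are. No paired analysis was possible because there was 1 array per day. Results near the lower end of the scale, such as Mx1 and Ifnb1, are limited by low signal.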

Other observations

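Class I antigen presentation genes, which interferon also induces, had smaller differences by value, which were not tested against the members. Of 13 with a row, 6 had their lowest value at day 2, where 16.5% of all genes did, among them the light chain B2m (-0.49 at day 2 against day 0) and the heavy chain H2-K1 (-0.36). At day 2 against day 0, 0 were 2-fold lower and 0 higher, with a median of -0.10. The median from day 2 to day 3 was 0.37. The peptide transporter Tap2 alone was 2-fold higher at day 5 (1.40). Tap2 held 7.39 at day 0, 7.16 at day 1, 8.28 at day 2, 9.23 at day 3 and 8.79 at day 5, so it was highest at day 3, as were Gbp3 and Gbp7. The nonclassical class I gene H2-T23 (0.70) and the proteasome activator Psme2 (0.70) were higher in value at day 5 without passing 2-fold.

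Some interferon-inducible genes outside the set were higher in value at day 5 than at day 0. Ifitm1, a membrane protein that blocks virus entry, held 4.89, 4.83, 5.43, 7.30 and 6.83 over days 0, 1, 2, 3 and 5. Ifi202b, a HIN-200 protein, held 3.90, 5.47, 6.12, 5.49 and 5.62, with its highest value on the day 2 array. Cd274, the inhibitory ligand PD-L1, held 5.82, 7.28, 6.91, 7.06 and 6.94. The chemokine Ccl5 held 8.24 on days 0 and 1, 7.58 at day 2, 8.41 at day 3 and 9.18 at day 5. The IgG receptor Fcgr1 went the other way, with 10.75, 7.14, 6.57, 7.57 and 8.21, and was 2-fold lower at day 5 than at day 0 (-2.54).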
